A study of Mus musculus with 24 samples.

Results

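The 7 genes H2-K1, H2-D1, B2m, H2-T23, Tap1, Tap2 and Tapbp encode the core of the MHC class I antigen presentation machinery, and they were taken by symbol from 26636 genes measured in 24 RNA-seq libraries of mouse neural progenitor cells. All 7 were found in every library and all 7 passed the filter on low values, Tap2 only through the (−)-JQ1 libraries. By group means, in cells given (+)-JQ1 the heavy chain genes H2-K1 and H2-D1 and the light chain gene B2m were at higher levels than in cells given (−)-JQ1, the peptide transporter genes Tap1 and Tap2 and the loading gene Tapbp were at lower levels, and H2-T23 was near the same level under both. The genes were chosen with these levels in the 8 groups known, so their levels and differences are given as a description without a test.

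A class I molecule is a heavy chain that spans the membrane, paired with beta-2-microglobulin, which holds a short peptide cut from the cell's own proteins and shows it to CD8+ T cells and natural killer cells. The proteasome cuts the peptides, the transporter made of Tap1 and Tap2 carries them into the endoplasmic reticulum, and tapasin, the product of Tapbp, tethers empty class I molecules to the transporter until they are loaded. Neural progenitors and neurons carry little class I in the healthy brain, and interferon raises nearly every step of the pathway through factors that include IRF1 and NLRC5.

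The cells were cortical neural progenitors of C57BL/6 embryos at embryonic day 12, grown with bFGF and B27 supplement and taken at passage 3. JQ1 is a small molecule whose (+) enantiomer binds the bromodomains of BET proteins and displaces them from acetylated histones, while its mirror image, (−)-JQ1, is the inactive control. In differentiation medium the cells received (+)-JQ1 or (−)-JQ1, each at a dose of 0.2 or 0.5 µM and for 12 or 24 h. Each of the 8 groups had 3 libraries, from 3 separate progenitor preparations according to the labels, and no group of untreated cells is analysed here. The question was how the active enantiomer differed from the inactive one at each matched dose and time.

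Levels are FPKM, which divide the reads of a gene by its transcript length and by the size of the library, so that genes can be set beside each other per length. Between 16953 and 18201 genes had a value above 0 in a library, and the steps between low values put the deepest library at 1.12 times the depth of the shallowest. The microRNA gene Mir5105 took 46.9% of the summed FPKM in the second (+)-JQ1 library at 0.2 µM and 24 h and 42.7% in the first (−)-JQ1 library at that dose and time, and at most 6.69% in the other 22, so the values at 0.2 µM and 24 h are also given without these 2 libraries. Hexim1, a gene used as a readout of BET inhibition, was at 51.1 to 72.1 FPKM over the 4 (+)-JQ1 groups, against 16.8 to 21.8 FPKM over the 4 (−)-JQ1 groups, and the 2 ranges were apart.

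The DNA just before the annotated starts of these genes is shown because the classical class I genes and the transporter gene Tap1 differ there in known motifs. Stretches of 250 bases that end 1 base before the start were read from RefSeq on build GRCm38.p6 for 6 of the 7 genes. All but that of Tapbp are written here, 5′ to 3′ on the strand of the gene. Capitals mark matches, on either strand, to the kappa B type motif GGGATTCCC, to the interferon response type motifs GAANNGAAA and AAANNGAAA, to the core TGACG of a cyclic AMP response element, and to CCAAT. No match of a motif overlapped with a match of another in the stretches shown. A match is a string of letters and not a measured site of binding.
H2-K1, chr17:34000334-34000583, minus strand, the start further along of 2 listed: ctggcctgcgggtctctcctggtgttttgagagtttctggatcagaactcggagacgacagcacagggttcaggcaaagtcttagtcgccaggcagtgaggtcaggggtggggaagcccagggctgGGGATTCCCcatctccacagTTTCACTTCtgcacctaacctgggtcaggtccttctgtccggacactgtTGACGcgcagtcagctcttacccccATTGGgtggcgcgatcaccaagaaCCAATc
H2-D1, chr17:35262844-35263093, plus strand: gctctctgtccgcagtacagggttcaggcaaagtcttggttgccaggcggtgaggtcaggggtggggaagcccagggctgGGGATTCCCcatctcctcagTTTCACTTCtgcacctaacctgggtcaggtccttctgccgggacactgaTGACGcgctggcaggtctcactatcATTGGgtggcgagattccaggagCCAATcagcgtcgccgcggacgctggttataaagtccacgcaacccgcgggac
B2m, chr2:122147437-122147686, plus strand: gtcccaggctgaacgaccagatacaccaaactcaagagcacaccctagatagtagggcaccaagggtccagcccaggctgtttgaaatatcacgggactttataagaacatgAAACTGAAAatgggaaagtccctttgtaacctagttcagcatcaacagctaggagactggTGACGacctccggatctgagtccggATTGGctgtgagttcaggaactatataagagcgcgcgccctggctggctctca
H2-T23, chr17:36032702-36032951, minus strand: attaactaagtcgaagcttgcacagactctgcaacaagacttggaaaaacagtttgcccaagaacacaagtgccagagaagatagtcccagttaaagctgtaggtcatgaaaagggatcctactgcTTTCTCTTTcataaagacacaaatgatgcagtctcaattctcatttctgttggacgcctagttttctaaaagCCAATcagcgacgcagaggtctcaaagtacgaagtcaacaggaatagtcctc
Tap1, chr17:34187306-34187555, plus strand: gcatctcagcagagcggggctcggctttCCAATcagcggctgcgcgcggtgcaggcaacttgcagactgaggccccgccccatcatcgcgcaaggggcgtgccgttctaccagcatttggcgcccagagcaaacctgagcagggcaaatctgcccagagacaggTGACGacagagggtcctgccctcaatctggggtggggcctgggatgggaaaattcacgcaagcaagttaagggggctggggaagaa

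The stretches of H2-K1 and H2-D1 were 87.2% identical over 203 aligned bases and held the same motifs in the same order. GGGATTCCC began 124 bases before the start in H2-K1 and 170 bases before it in H2-D1, and it stood in 99 of the 32851 mouse promoter stretches of this length (0.301%). In both genes it was followed by a GAANNGAAA match, a motif found in 6.31% of the stretches. B2m held AAANNGAAA, a motif in 9.37% of the stretches, with TGACG and CCAAT after it. H2-T23 held AAANNGAAA and CCAAT but neither GGGATTCCC nor TGACG in this window. Tap1 held TGACG and CCAAT and neither of the interferon response type motifs. Tapbp, at chr17:33919228-33919477 on the plus strand, held 2 CCAAT matches and no match to the other motifs. TGACG stood in 17.8% and CCAAT in 33.8% of all stretches. The Tap1 stretch overlapped by 225 bases with that of Psmb9, an immunoproteasome gene read from the opposite strand, so one short stretch of DNA lies between these divergent genes.

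Of the heavy chain genes, H2-K1 encodes the classical chain K, which in C57BL/6 mice presents peptides to CD8+ T cells. H2-K1 was at 16.5, 19.9 and 16.4 FPKM in (+)-JQ1 cells at 0.2 µM and 12 h, against 8.14, 6.18 and 6.54 FPKM in (−)-JQ1 cells. It was at 19.4, 24.7 and 15.8 FPKM in (+)-JQ1 cells at 0.5 µM and 12 h, against 7.33, 6.71 and 5.78 FPKM in (−)-JQ1 cells. At both doses every (+)-JQ1 library was above every (−)-JQ1 library at 12 h. H2-K1 at 24 h and 0.2 µM was at 13.9, 18.6 and 12.5 FPKM in (+)-JQ1 cells, against 11.3, 6.88 and 10.2 FPKM in (−)-JQ1 cells. The 0.5 µM dose at 24 h gave 13.5, 14.8 and 14.3 FPKM in (+)-JQ1 cells, against 7.44, 8.21 and 6.40 FPKM in (−)-JQ1 cells. The groups did not overlap at 24 h either, though at 0.2 µM the lowest (+)-JQ1 library and the highest (−)-JQ1 library lay close together. On the log2(FPKM + 1) scale the difference, (+) minus (−)-JQ1, was 1.23 and 1.45 for 0.2 and 0.5 µM at 12 h, and 0.62 and 0.87 for 0.2 and 0.5 µM at 24 h, each ± 0.17 (SE from the fit of all 24 libraries).

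H2-D1 encodes the other classical chain of this strain, D. H2-D1 was at 10.8, 11.7 and 10.7 FPKM in (+)-JQ1 cells at 0.2 µM and 12 h, against 3.96, 3.34 and 4.58 FPKM in (−)-JQ1 cells. It was at 13.4, 15.2 and 13.6 FPKM in (+)-JQ1 cells at 0.5 µM and 12 h, against 3.78, 3.83 and 4.76 FPKM in (−)-JQ1 cells. Again all 3 (+)-JQ1 libraries stood well above all 3 (−)-JQ1 libraries at 12 h. H2-D1 at 24 h and 0.2 µM was at 9.59, 19.3 and 10.4 FPKM in (+)-JQ1 cells, against 10.1, 3.78 and 6.01 FPKM in (−)-JQ1 cells. Here the groups overlapped, and the highest library of each was the one in which Mir5105 took a large share. At 24 h and 0.5 µM it was at 10.8, 14.02 and 10.8 FPKM in (+)-JQ1 cells, against 3.72, 5.19 and 4.13 FPKM in (−)-JQ1 cells, with no overlap. The log2 differences were 1.29, 1.56, 0.90 and 1.26 in the same order of doses and times, each ± 0.23 (SE).

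B2m encodes beta-2-microglobulin, the light chain that every class I heavy chain needs to reach the surface, and it was the most abundant of the 7 genes. B2m was at 71.2, 67.8 and 69.5 FPKM in (+)-JQ1 cells at 0.2 µM and 12 h, against 46.1, 41.1 and 47.1 FPKM in (−)-JQ1 cells. It was at 88.7, 84.4 and 77.6 FPKM in (+)-JQ1 cells at 0.5 µM and 12 h, against 52.5, 43.3 and 52.0 FPKM in (−)-JQ1 cells. No libraries overlapped at 12 h. B2m at 24 h and 0.2 µM was at 56.4, 40.8 and 54.1 FPKM in (+)-JQ1 cells, against 32.8, 49.6 and 47.5 FPKM in (−)-JQ1 cells. These groups overlapped, and in both the lowest library was the one with the large Mir5105 share. The 0.5 µM dose at 24 h gave 59.2, 67.6 and 67.8 FPKM in (+)-JQ1 cells, against 43.7, 43.2 and 51.7 FPKM in (−)-JQ1 cells, and the groups were apart. The log2 differences were 0.63, 0.75, 0.22 and 0.48, each ± 0.14 (SE), and that at 0.2 µM and 24 h came to 0.04 without the first (−)-JQ1 library and to 0.37 without the second (+)-JQ1 library.

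H2-T23 encodes the non-classical chain Qa-1, which shows signal peptides of other class I chains to the NKG2A receptor of natural killer cells. H2-T23 ranged from 3.42 to 4.10 FPKM with a median of 3.60 over the 12 (+)-JQ1 libraries, against 2.45 to 4.09 FPKM with a median of 3.30 over the 12 (−)-JQ1 libraries. The groups were apart at 0.2 µM and 12 h, where the (+)-JQ1 libraries were at 3.54, 4.01 and 3.47 FPKM and the (−)-JQ1 libraries at 3.08, 3.39 and 3.08 FPKM. They overlapped in the other 3 comparisons. Its log2 differences were 0.16, 0.20, 0.03 and 0.05, each ± 0.11 (SE), and those at 24 h changed sign when single libraries were left out. That at 0.5 µM and 12 h came to 0.08 without the third (−)-JQ1 library.

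**Figure D1:**
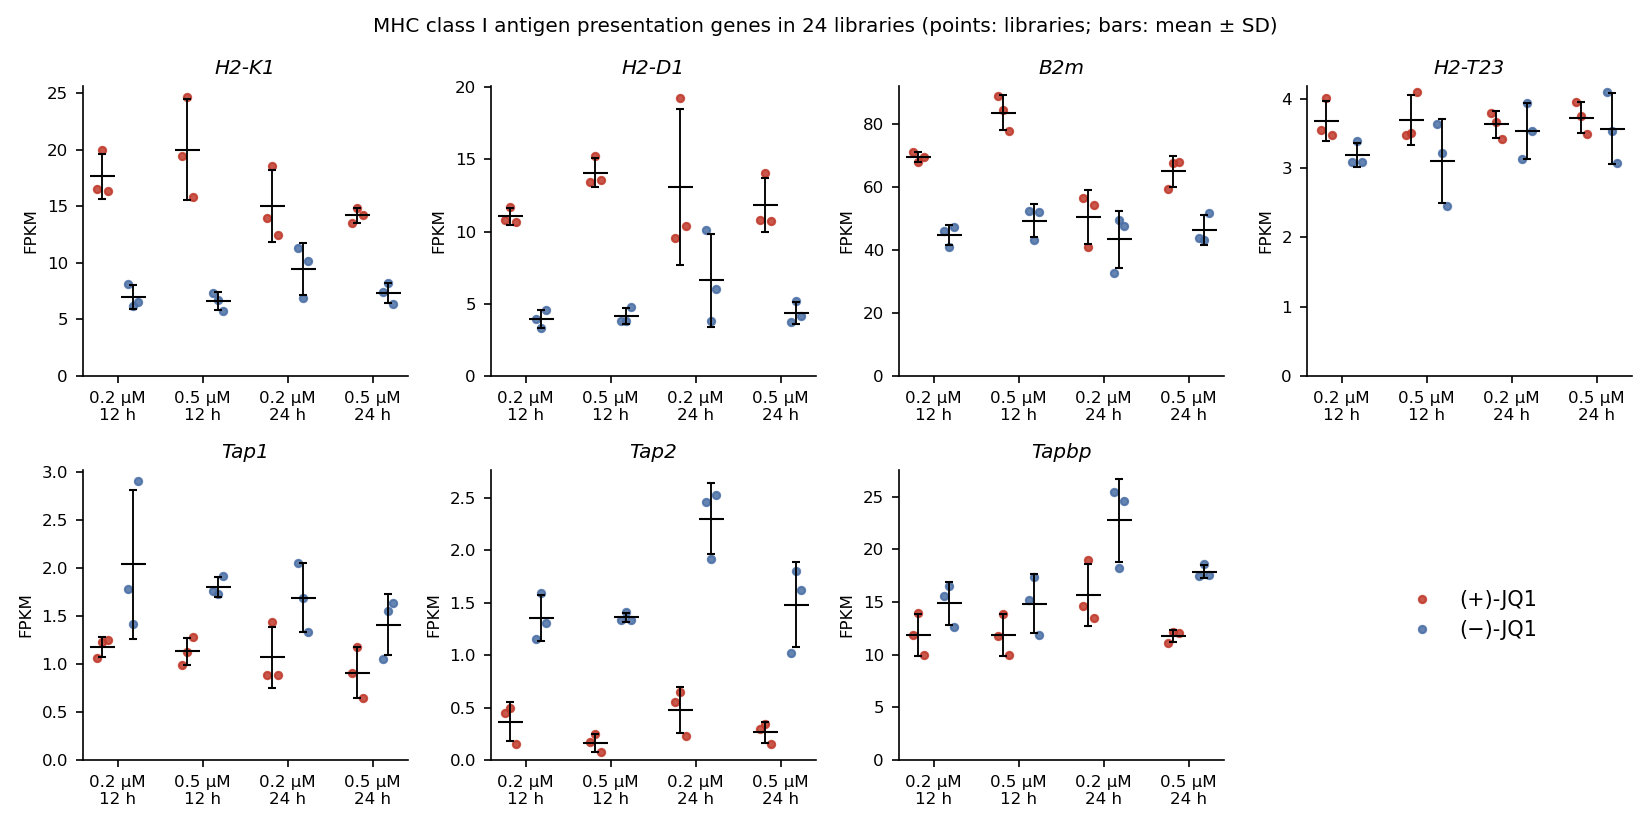
FPKM (y axis, linear, from 0) of each of the 7 genes in the 4 combinations of dose and time (x axis), with (+)-JQ1 in red left of (−)-JQ1 in blue; points are libraries and bars are the mean ± SD of 3. H2-K1 has its (+)-JQ1 points above its (−)-JQ1 points in all 4 combinations, Tap2 has them below in all 4, and H2-T23 lies between 2.45 and 4.10 FPKM throughout.

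Tap1 encodes a subunit of the ATP-driven transporter that brings peptides into the endoplasmic reticulum. Tap1 was at 1.06, 1.23 and 1.25 FPKM in (+)-JQ1 cells at 0.2 µM and 12 h, against 1.78, 1.42 and 2.91 FPKM in (−)-JQ1 cells. It was at 0.995, 1.13 and 1.28 FPKM in (+)-JQ1 cells at 0.5 µM and 12 h, against 1.76, 1.73 and 1.92 FPKM in (−)-JQ1 cells. The (+)-JQ1 libraries were the lower ones at 12 h without overlap. Tap1 at 24 h and 0.2 µM was at 0.884, 1.44 and 0.890 FPKM in (+)-JQ1 cells, against 2.05, 1.68 and 1.33 FPKM in (−)-JQ1 cells. At 24 h and 0.5 µM it was at 0.907, 1.17 and 0.642 FPKM in (+)-JQ1 cells, against 1.05, 1.55 and 1.63 FPKM in (−)-JQ1 cells. The groups overlapped at 24 h at both doses, by the highest (+)-JQ1 and the lowest (−)-JQ1 library. The log2 differences were -0.45, -0.40, -0.38 and -0.34, each ± 0.16 (SE), and the first came to -0.25 without the third (−)-JQ1 library.

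Tap2 encodes the partner subunit, without which the transporter does not work. Tap2 was at 0.448, 0.493 and 0.151 FPKM in (+)-JQ1 cells at 0.2 µM and 12 h, against 1.16, 1.59 and 1.31 FPKM in (−)-JQ1 cells. It was at 0.176, 0.246 and 0.0749 FPKM in (+)-JQ1 cells at 0.5 µM and 12 h, against 1.34, 1.41 and 1.33 FPKM in (−)-JQ1 cells. The lowest (−)-JQ1 library was well above the highest (+)-JQ1 library at 12 h. Tap2 at 24 h and 0.2 µM was at 0.549, 0.653 and 0.229 FPKM in (+)-JQ1 cells, against 2.47, 1.92 and 2.53 FPKM in (−)-JQ1 cells. The 0.5 µM dose at 24 h gave 0.301, 0.343 and 0.150 FPKM in (+)-JQ1 cells, against 1.02, 1.81 and 1.62 FPKM in (−)-JQ1 cells. The 12 (+)-JQ1 libraries therefore all lay below the 12 (−)-JQ1 libraries, the widest separation of the 7 genes in the ratio of group means. That ratio, (+) to (−)-JQ1, was 0.269, 0.122, 0.207 and 0.178. The log2 differences were -0.79, -1.02, -1.17 and -0.96, each ± 0.14 (SE), and on the scale with a pseudocount of 0.1 FPKM they were -1.73, -2.52, -2.13 and -2.12, since adding 1 FPKM understates the change of a gene at this level.

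The low values of Tap2 sat on whole multiples of a single step within a tolerance of 0.02 of a step, so the reads behind them could be counted if 1 step is 1 read. Tap2 then had 12, 13 and 4 reads in (+)-JQ1 cells at 0.2 µM and 12 h, against 33, 43 and 37 reads in (−)-JQ1 cells. At 0.5 µM and 12 h there were 5, 7 and 2 reads in (+)-JQ1 cells, against 38, 38 and 35 in (−)-JQ1 cells. The (+)-JQ1 values at 12 h thus rest on 2 to 13 reads per library. At 0.2 µM and 24 h there were 15, 17 and 6 reads in (+)-JQ1 cells, against 66, 53 and 71 in (−)-JQ1 cells, and at 0.5 µM and 24 h there were 8, 9 and 4 reads in (+)-JQ1 cells, against 26, 50 and 43 in (−)-JQ1 cells. Summed over 12 libraries each, Tap2 had 102 reads in (+)-JQ1 cells and 533 in (−)-JQ1 cells. Reads given below for other genes rest on the same assumption, which can fail. Ifit1, named after its values were seen, came to as many as 1003 steps in a library though it never exceeded 0.598 FPKM.

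Tapbp encodes tapasin, which bridges empty class I molecules to the transporter and edits the peptides they bind. Tapbp was at 11.8, 13.9 and 9.95 FPKM in (+)-JQ1 cells at 0.2 µM and 12 h, against 15.5, 16.5 and 12.6 FPKM in (−)-JQ1 cells. It was at 11.8, 13.9 and 9.96 FPKM in (+)-JQ1 cells at 0.5 µM and 12 h, against 15.2, 17.4 and 11.9 FPKM in (−)-JQ1 cells. Its groups overlapped at 12 h at both doses, while within each replicate number the (+)-JQ1 library was below the (−)-JQ1 library at both doses. Tapbp at 24 h and 0.2 µM was at 14.6, 19.02 and 13.4 FPKM in (+)-JQ1 cells, against 25.4, 18.2 and 24.6 FPKM in (−)-JQ1 cells. At 24 h and 0.5 µM it was at 11.1, 12.1 and 12.05 FPKM in (+)-JQ1 cells, against 17.5, 18.6 and 17.5 FPKM in (−)-JQ1 cells. Only the last of these 4 comparisons had groups that did not overlap. The log2 differences were -0.30, -0.29, -0.51 and -0.57, each ± 0.16 (SE). The first came to -0.19 without the third (+)-JQ1 library, and the second to -0.18 without the third (+)-JQ1 or the second (−)-JQ1 library.

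**Figure D2:**
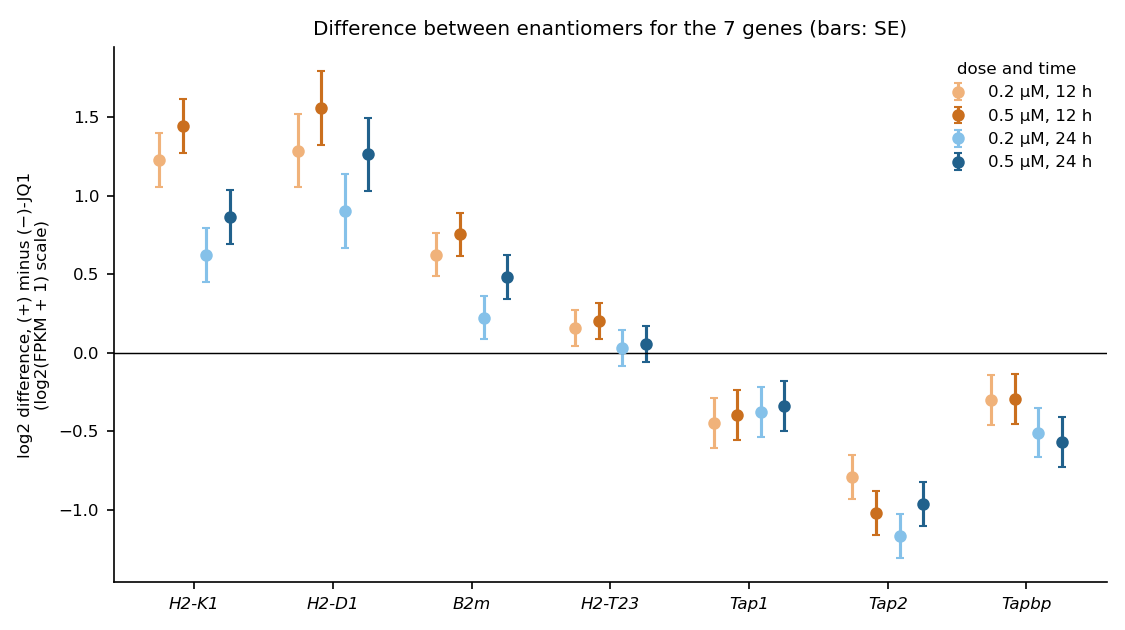
Log2 difference, (+) minus (−)-JQ1, on the log2(FPKM + 1) scale (y axis) for each of the 7 genes (x axis), with 1 point for each dose and time and bars for the SE. H2-K1, H2-D1 and B2m lie above 0 at 0.22 to 1.56, H2-T23 at 0.03 to 0.20, and Tap1, Tap2 and Tapbp below 0 at -1.17 to -0.29.

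At 0.2 µM and 12 h, 4 of the 7 genes were higher without overlap between groups and 2 were lower, against 16.8% and 30.2% of the 13801 genes tested. In the 0.5 µM, 12 h comparison 3 were higher and 2 lower, against 20.7% and 37.5% of genes tested. With 0.2 µM for 24 h, 1 was higher (H2-K1) and 1 lower (Tap2), against 11.7% and 22.3%, and with 0.5 µM for 24 h 3 were higher and 2 lower, against 18.7% and 29.4%. H2-K1 was higher in all 4 comparisons, as were 6.6% of genes tested, and Tap2 was lower in all 4, as were 15.1%. The median log2 difference of the 7 genes was 0.16, 0.20, 0.03 and 0.05 in the 4 comparisons, beside -0.07, -0.10, -0.07 and -0.05 over all genes tested. Since the genes were picked on this contrast, nothing is read from these shares. Without the 2 libraries of high Mir5105 share at 0.2 µM and 24 h, which leaves 2 libraries a group, H2-K1, H2-D1 and B2m were higher without overlap at log2 differences of 0.60, 0.92 and 0.18. Tap1, Tap2 and Tapbp were lower without overlap there at -0.41, -1.22 and -0.56, and H2-T23 overlapped at -0.04.

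The order of the 8 group means put all 4 (+)-JQ1 groups on 1 side of all 4 (−)-JQ1 groups for 6 of the 7 genes, Tapbp being the exception. For H2-K1 all 4 (+)-JQ1 groups ranked above all 4 (−)-JQ1 groups, with 19.97 ± 4.45 FPKM for 0.5 µM, 12 h, 17.6 ± 2.01 for 0.2 µM, 12 h, 14.997 ± 3.17 for 0.2 µM, 24 h and 14.2 ± 0.667 for 0.5 µM, 24 h (SD, n = 3). The (−)-JQ1 groups followed with 9.45 ± 2.29, 7.35 ± 0.906, 6.95 ± 1.04 and 6.61 ± 0.779 FPKM (SD, n = 3 each). Neighbouring groups overlapped except across the step from (+) to (−)-JQ1. For H2-D1 too, only the 2 groups next to that step were apart from their neighbour. Its enantiomers still overlapped, since the lowest (+)-JQ1 library, at 9.59 FPKM, was below the highest (−)-JQ1 library, at 10.1 FPKM. For Tap2 the order was turned round, with the (−)-JQ1 groups at 2.30 ± 0.337 to 1.35 ± 0.221 FPKM above the (+)-JQ1 groups at 0.477 ± 0.221 to 0.165 ± 0.0860 FPKM (SD, n = 3 each), and (−)-JQ1 at 0.2 µM and 24 h also stood clear of the next group. B2m was highest at 83.6 ± 5.597 FPKM with (+)-JQ1 at 0.5 µM and 12 h, clear of the 69.5 ± 1.70 FPKM with (+)-JQ1 at 0.2 µM and 12 h (SD, n = 3 each). Further down, B2m with (+)-JQ1 at 0.2 µM and 24 h, 50.5 ± 8.43 FPKM, overlapped with the highest (−)-JQ1 group at 49.2 ± 5.17 FPKM. Neighbouring groups overlapped at every rank for H2-T23, Tap1 and Tapbp.

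For H2-K1 the log2 difference between enantiomers was smaller at 24 than at 12 h, by -0.61 at 0.2 µM and -0.58 at 0.5 µM, each ± 0.24 (SE). For B2m the change from 12 to 24 h was -0.40 at 0.2 µM and -0.27 at 0.5 µM, each ± 0.20 (SE), and for H2-D1 it was -0.38 and -0.30, each ± 0.33 (SE). Going from 0.2 to 0.5 µM changed the H2-K1 difference by 0.22 at 12 h and 0.24 at 24 h, near its SE of 0.24, and the H2-D1 difference by 0.27 and 0.36, near its SE of 0.33. For Tap1 all 4 such changes lay between 0.04 and 0.07 with an SE of 0.23. These intervals are wide beside the differences themselves, so equal response at the 2 doses is not shown.

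The balance between chain and loading genes differed between the libraries of the 2 enantiomers. The FPKM ratio of H2-K1 to Tapbp had a median of 1.31, with a range of 0.929 to 1.78, over the 12 (+)-JQ1 libraries and a median of 0.433, with a range of 0.365 to 0.524, over the 12 (−)-JQ1 libraries. It was above 1 in 9 of 12 (+)-JQ1 libraries and in 0 of 12 (−)-JQ1 libraries, and a ratio of this kind does not change with the scaling of a library. The ratio was above 1 in 0 of the 3 (+)-JQ1 libraries at 0.2 µM and 24 h, which were at 0.929, 0.956 and 0.976. The ratio of B2m to Tap2 had a median of 217 with (+)-JQ1 and 31.3 with (−)-JQ1, and no library of either enantiomer reached into the range of the other. Tap1 and Tap2, which work as a pair, were near equal in FPKM with (−)-JQ1, at a median ratio of 1.02 and a range of 0.528 to 2.23. With (+)-JQ1 Tap1 exceeded Tap2 in all 12 libraries, at a median ratio of 3.65 and a range of 1.61 to 17.1.

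Across the 24 libraries, which share the contrast between enantiomers, the Pearson correlation of log2 values was 0.94 between H2-K1 and H2-D1, 0.82 between Tap2 and Tapbp, and -0.81 between B2m and Tap2. It was 0.68 between Tap1 and Tap2 and 0.68 between H2-K1 and B2m. H2-T23 had its largest value with Tap1, at -0.53. Among 9296 other genes with a mean of at least 5 FPKM, those most like H2-K1 over the 24 libraries were Hist2h2aa2 at 0.96, Pttg1ip at 0.95 and Raly at 0.95. Those most like B2m were Vps26a at 0.93, Ogdh at 0.90 and Herpud2 at 0.90, and those most like Tap1 were Extl2 at 0.89, Vps52 at 0.86 and Aen at 0.86. These values describe likeness in these libraries and nothing more.

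Class I genes are a family of near copies, so reads can be assigned to the wrong member. Of the 50-base windows of H2-K1 transcripts, 6.87% also occurred in another gene, and 5.43% occurred in H2-D1. The share was 13.9% for H2-D1, 29.8% for H2-T23, 6.27% for Tap1, 12.1% for Tap2 and 22.4% for Tapbp. B2m had 0 shared windows of 811. The largest partners were H2-T-ps for H2-T23, Psmb9 for Tap1, Gm15821 for Tap2 and Gm19412 for Tapbp. How shared reads were counted is not given in the sources used here, so the levels of the heavy chain genes, and of Tapbp and Tap2, are uncertain by an unknown part of these shares.

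Other genes of the pathway were taken from lists of 61 genes, of which 57 were in the files and 46 passed the filter. Among those that passed, H2-Q1 and Fcgrt reached 1 FPKM in libraries of 1 enantiomer only, and they count in the totals given here and below. In limma with Benjamini-Hochberg adjustment over all genes, 5 of the 46 rose and 5 fell with (+) against (−)-JQ1 at the first of the comparisons, 0.2 µM for 12 h. That was 21.7% of them, beside 27.9% of all genes tested, of which 8.23% rose and 19.6% fell. For 0.5 µM and 12 h 6 rose and 12 fell, or 39.1%, beside 38.3% of all genes, 12.2% up and 26.1% down. For 0.2 µM and 24 h 5 rose and 12 fell, or 37%, beside 32.8% of all genes, 11% up and 21.8% down. For 0.5 µM and 24 h 4 rose and 10 fell, or 30.4%, beside 38.2% of all genes, 13.7% up and 24.5% down. Their median log2 fold change was -0.14, -0.06, -0.05 and -0.07, beside -0.07, -0.10, -0.07 and -0.05 over all genes. Whether the share called differs from that of all genes was not tested.

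Of the other heavy chain and class I-like genes, 11 of 20 in the files were tested, and 2 rose in each comparison while 1 or 2 fell. The ones that rose, named after their values were seen, were the non-classical chain genes H2-Q1, H2-Q2 and H2-Q6. H2-Q2 averaged 1.72 ± 0.304 FPKM in (+)-JQ1 cells and 0.507 ± 0.0944 FPKM in (−)-JQ1 cells at 0.5 µM and 12 h (SD, n = 3 each), a limma log2 fold change of 0.85 ± 0.19 (SE, Benjamini-Hochberg adjusted p = 0.00123). Its rise was called in all 4 comparisons, but the calls at 24 h were lost without single libraries. At 0.2 µM these were the first or second (+)-JQ1 or the second or the third (−)-JQ1 library, with limma adjusted p up to 0.21. At 0.5 µM they were the second or the third (+)-JQ1 or the first or second (−)-JQ1 library, with adjusted p up to 0.153. Of 7 other settings, 3 lost the call at 0.2 µM and 24 h. At 0.5 µM and 24 h 1 did, no filter, at a limma adjusted p of 0.0569. H2-Q1 averaged 1.06 ± 0.134 FPKM in (+)-JQ1 cells and 0.249 ± 0.0635 FPKM in (−)-JQ1 cells at 0.5 µM and 12 h (SD, n = 3 each; limma log2 fold change 0.72 ± 0.14, adjusted p = 0.000309). H2-Q1 reached 1 FPKM only in (+)-JQ1 libraries and so entered the test through the group where it was high, and with no filter its limma adjusted p there was 0.000312. Its calls at 0.2 µM, 12 h and at 0.5 µM, 24 h were lost without single libraries, with adjusted p up to 0.114 without the third (+)-JQ1 library and up to 0.138 without the second (+)-JQ1 library. H2-Q6 was called at 0.2 µM and 24 h alone, at 0.89 ± 0.25 (SE, limma adjusted p = 0.00958), a call lost without the second (+)-JQ1 or the third (−)-JQ1 library at adjusted p = 0.0527 and 0.0653, and with only the 6 libraries of that comparison at 0.0687. H2-K1 and H2-D1 held H2-Q1 windows at 3.59% and 6.68%, so reads of the classical genes cannot be told apart from those of H2-Q1 in part.

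The 2 that fell were Mr1, whose product shows vitamin B metabolites to MAIT cells, and Fcgrt, the heavy chain of the neonatal Fc receptor, both of which also pair with beta-2-microglobulin. Mr1 averaged 0.849 ± 0.206 FPKM in (+)-JQ1 cells and 2.99 ± 0.852 FPKM in (−)-JQ1 cells at 0.5 µM and 24 h (SD, n = 3 each). Its limma log2 fold change was -1.17, -1.32, -0.89 and -1.09 in the 4 comparisons, each ± 0.18 (SE), with Benjamini-Hochberg adjusted p of 3.74e-05, 4.88e-06, 0.000611 and 4.52e-05. Fcgrt, which reached 1 FPKM only in (−)-JQ1 libraries and so entered the test through the group where it was high, fell in 3 of the 4. Its limma log2 fold change was -0.66 ± 0.15 (SE) at 0.5 µM and 24 h (adjusted p = 0.00133). With no filter its limma adjusted p in the 4 comparisons was 0.114, 0.0158, 5.39e-05 and 0.00135, so the same 3 were called. At 0.5 µM and 12 h its call was lost without the first (+)-JQ1 or the first (−)-JQ1 library, with adjusted p of 0.0585 and 0.102.

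Of the peptide supply and loading genes, 15 of 16 were tested, and 3, 6, 7 and 5 of them fell while 0, 1, 1 and 0 rose in the 4 comparisons, the risers being Nrd1 at 0.5 µM for 12 h and Lnpep at 0.2 µM for 24 h, named after their values were seen. Psmb10, a catalytic subunit of the immunoproteasome, averaged 0.378 ± 0.124 FPKM in (+)-JQ1 cells and 3.39 ± 0.839 FPKM in (−)-JQ1 cells at 0.5 µM and 24 h (SD, n = 3 each). Its limma log2 fold change was -1.18, -1.35, -1.50 and -1.66, each ± 0.25 (SE), with Benjamini-Hochberg adjusted p of 0.00102, 0.000175, 8.11e-05 and 1.64e-05. In reads, counted as for Tap2, this was a sum of 120 in (+)-JQ1 cells and 595 in (−)-JQ1 cells. The other immunoproteasome subunits sat at the edge of detection, Psmb8 with 3 reads over the 12 (+)-JQ1 libraries and 16 over the 12 (−)-JQ1 libraries, and Psmb9 with 81 over the (+)-JQ1 and 53 over the (−)-JQ1 libraries, and neither was called. Psmb9 neighbours Tap1 on chromosome 17 and shares its start region, and its log2 fold change was 0.45, 0.13, 0.05 and 0.56 ± 0.26 (SE; limma adjusted p = 0.221, 0.736, 0.903 and 0.0985), against negative differences for Tap1.

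Psme1, a subunit of the PA28 cap that opens the proteasome, averaged 24.0 ± 1.72 FPKM in (+)-JQ1 cells and 53.3 ± 8.55 FPKM in (−)-JQ1 cells at 0.5 µM and 24 h (SD, n = 3 each). It fell in all 4 comparisons, with limma log2 fold changes of -0.63, -1.04, -0.92 and -1.11, each ± 0.14 (SE; adjusted p = 0.0019, 5.74e-06, 4.21e-05 and 2.38e-06). Psme2, its partner in the cap, fell in 3 of the 4, at -0.58 ± 0.17 (SE, limma adjusted p = 0.00855) at 0.5 µM and 24 h, a call lost without the third (+)-JQ1 or the second (−)-JQ1 library at adjusted p = 0.0588 and 0.0508. Erap1, the aminopeptidase that trims peptides to length in the endoplasmic reticulum, averaged 1.10 ± 0.123 FPKM in (+)-JQ1 cells and 2.92 ± 0.324 FPKM in (−)-JQ1 cells at 0.5 µM and 24 h (SD, n = 3 each). Its limma log2 fold change was -0.62, -0.61, -0.90 and -0.90, each ± 0.12 (SE), with adjusted p of 0.000472, 0.000382, 6.79e-06 and 3.97e-06.

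The general chaperones of loading had small fold changes. Calr, which encodes calreticulin, averaged 401 ± 38.5 FPKM in (+)-JQ1 cells and 519 ± 61.7 FPKM in (−)-JQ1 cells at 0.5 µM and 24 h (SD, n = 3 each; limma log2 fold change -0.37 ± 0.14, adjusted p = 0.044). Its call at 24 h was lost without any 1 of 4 libraries at 0.2 µM and of 5 at 0.5 µM, with adjusted p up to 0.26 without the second and 0.171 without the third (+)-JQ1 library of those doses. Canx, which encodes calnexin, was not called in any comparison, with limma adjusted p of 0.405 to 0.826. Pdia3, the disulfide isomerase ERp57, fell at 0.2 µM and 24 h at -0.39 ± 0.14 (SE, limma adjusted p = 0.0421), and Tapbpl, the tapasin relative TAPBPR, at 0.5 µM and 12 h at -0.30 ± 0.11 (SE, adjusted p = 0.042). Both calls were lost without single libraries, with adjusted p up to 0.234 for Pdia3 without the third (−)-JQ1 library and 0.116 for Tapbpl without the first (+)-JQ1 library. Of the standard catalytic subunits Psmb5, Psmb6 and Psmb7, 0, 0, 1 and 0 were called, the one being Psmb7 at 0.2 µM and 24 h at -0.37 ± 0.14 (SE, limma adjusted p = 0.0462), lost without the third (+)-JQ1 library at adjusted p = 0.222 and without 3 others.

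**Figure D3:**
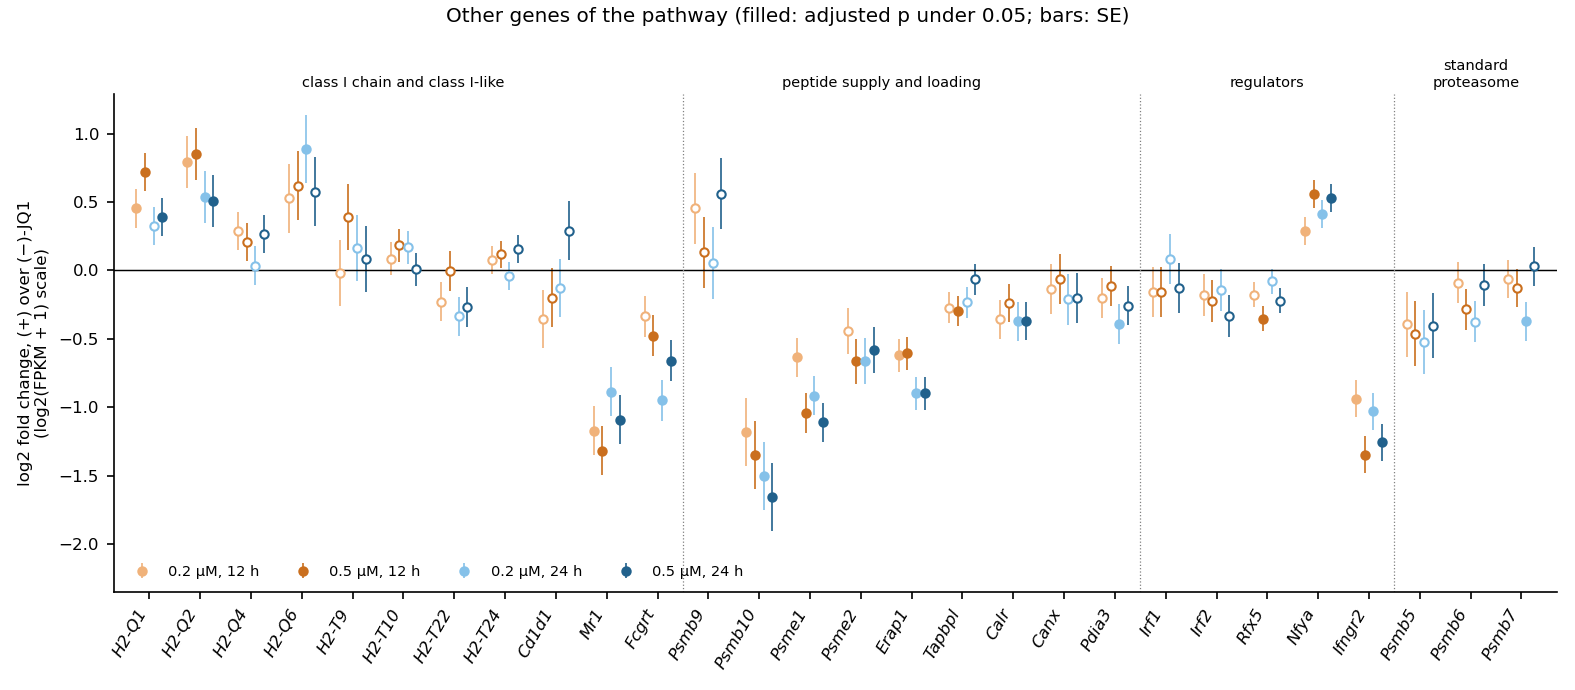
Log2 fold change, (+) over (−)-JQ1, on the log2(FPKM + 1) scale (y axis) for pathway genes outside the 7 (x axis, grouped by role), with 1 point for each dose and time, filled where the limma adjusted p was under 0.05, and bars for the SE. Psmb10, Psme1, Erap1, Mr1 and Ifngr2 are filled and below 0 at all 4 points, while Canx and Irf1 have open points near 0.

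Among 20 tested regulators of class I transcription, 3, 3, 2 and 2 rose and 1, 4, 3 and 3 fell. Beside the genes described next, and named after their values were seen, the risers included Stat2 at 12 h at both doses, Jak1 at all but 0.5 µM with 24 h, and Jak2 there, and the fallers included Atf1 in 3 comparisons and Nfkb1 at 0.5 µM at both times. Ifngr2, the second chain of the interferon gamma receptor, averaged 5.26 ± 0.252 FPKM in (+)-JQ1 cells and 13.996 ± 1.36 FPKM in (−)-JQ1 cells at 0.5 µM and 24 h (SD, n = 3 each). Its limma log2 fold change was -0.94, -1.35, -1.03 and -1.26, each ± 0.14 (SE), with Benjamini-Hochberg adjusted p of 2.05e-05, 9.03e-08, 5.64e-06 and 2.25e-07. Nfya, a subunit of the factor that binds CCAAT, rose in all 4 comparisons, at 0.53 ± 0.10 (SE, limma adjusted p = 0.000275) at 0.5 µM and 24 h. At 0.2 µM and 12 h its call was lost without any 1 of the 6 libraries, with adjusted p of 0.0643 to 0.141.

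Irf1, which switches on class I genes after interferon, averaged 1.96 ± 0.527 FPKM in (+)-JQ1 cells and 2.25 ± 0.723 FPKM in (−)-JQ1 cells at 0.5 µM and 24 h (SD, n = 3 each), and neither it nor Irf2, which competes for the same sites, was called in any comparison (limma adjusted p of 0.535 to 0.767 and 0.0964 to 0.498). Rfx5, which binds the X box of MHC promoters, fell at 0.5 µM and 12 h at -0.35 ± 0.09 (SE, limma adjusted p = 0.00406). Nlrc5, the transactivator of class I genes, stayed below the filter. Counted as for Tap2, it had 52 reads over the 12 (+)-JQ1 libraries and 150 over the 12 (−)-JQ1 libraries. With no filter its limma log2 fold change was -0.16, -0.05, -0.22 and -0.09, each ± 0.04 (SE; adjusted p = 0.0104, 0.486, 0.000852 and 0.111).

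**Figure D4:**
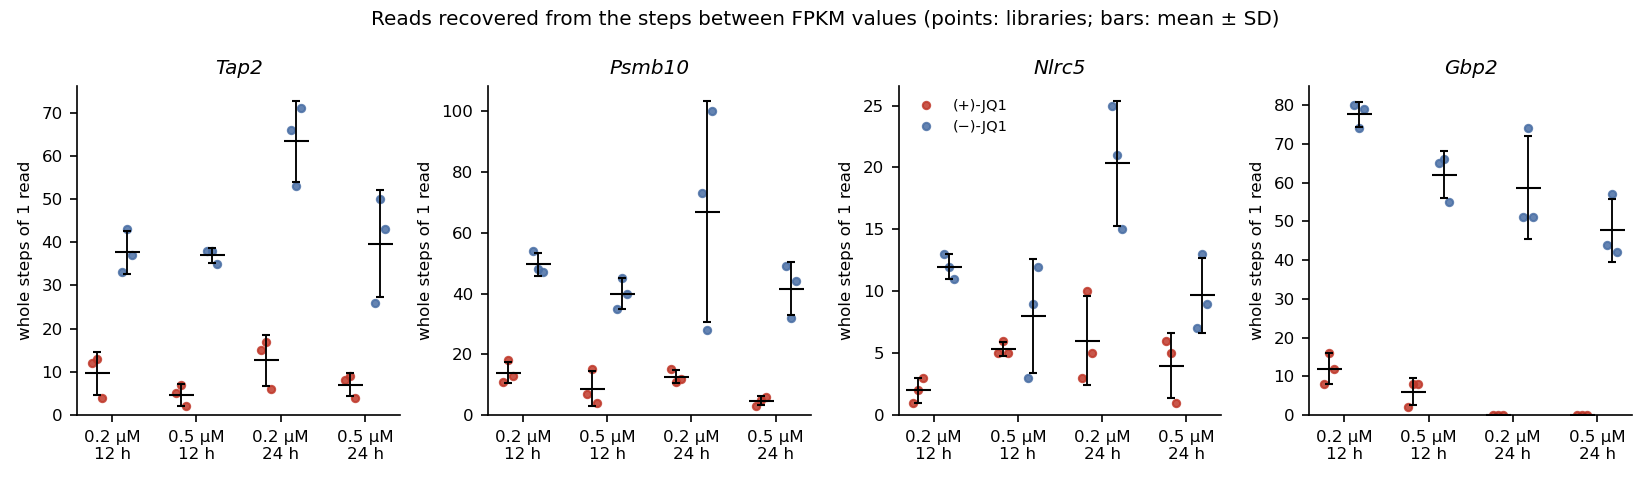
Whole steps, each taken as 1 read (y axis, linear, from 0), for Tap2, Psmb10, Nlrc5 and Gbp2 in the 4 combinations of dose and time (x axis), with (+)-JQ1 in red left of (−)-JQ1 in blue. Points are libraries and bars are the mean ± SD of 3. Tap2 had 2 to 17 reads in (+)-JQ1 libraries and 26 to 71 in (−)-JQ1 libraries, and Gbp2 was listed at 0 in all 6 (+)-JQ1 libraries at 24 h.

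The difference in response between doses and between times was tested for the 46 pathway genes. Of 184 tests, 0 were called in limma with Benjamini-Hochberg adjustment over all genes, the lowest adjusted p being 0.476 for Stat2, and 4 had an unadjusted p under 0.05. Over all genes the share called was 0.0435% for 0.5 against 0.2 µM at 12 h, 0.29% at 24 h, 0.0217% for 24 against 12 h at 0.2 µM and 0.326% at 0.5 µM.

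Cell types that carry much class I were looked for through their markers. Of 16 microglia markers, 15 stayed under 1 FPKM in every library and 6 were at 0 in all 24, among them C1qa, C1qb, Trem2 and Ctss. The exception was Cd68, named after its values were seen, at 0.708 to 3.64 FPKM with a median of 2.03. The sum of the 16 was 1.78 to 4.08 FPKM with a median of 2.77 in (+)-JQ1 libraries and 1.27 to 4.27 FPKM with a median of 2.47 in (−)-JQ1 libraries. The endothelial markers Cdh5 and Cldn5 were at 0 in all 24 libraries, and the sum of 10 such markers was 1.83 to 5.15 FPKM with (+)-JQ1 and 1.23 to 7.83 FPKM with (−)-JQ1. Kdr, at 0.374 to 6.58 FPKM, and Egfl7, at 0.172 to 2.34 FPKM, were above 0 in every library. In limma 1, 1, 1 and 0 of these 2 rose and 0, 0, 1 and 1 fell, beside 27.9% to 38.3% of all genes called. The sum of 10 pericyte and fibroblast markers was 24.1 to 68.8 FPKM with (+)-JQ1 and 62.8 to 159 FPKM with (−)-JQ1. Most of it was Acta2, a contractile actin gene, at 21.4 to 63.7 FPKM with (+)-JQ1 and 56.9 to 145 FPKM with (−)-JQ1, while Kcnj8 was at 0 in all 24 libraries and Rgs5 and Des in 17 and 18. Pdgfrb, Col3a1, Col1a1 and Dcn, named after their values were seen, reached at most 4.65, 4.21, 2.64 and 2.16 FPKM. Of the 5 genes of this list tested in limma, 0 rose and 3, 4, 4 and 4 fell. At least Col1a1 among these 5 reached 1 FPKM only in (−)-JQ1 libraries. It entered the test through the group where it was high, so nothing is read from these counts. Over all genes 19.6%, 26.1%, 21.8% and 24.5% fell.

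Markers of the labelled cell type were high. The sum of 10 neural stem and radial glia markers was 4620 to 7615 FPKM, median 5715, with (+)-JQ1 and 3296 to 5506 FPKM, median 3732, with (−)-JQ1. Its largest parts were Fabp7, at 1318 to 4859 FPKM, and Vim, at 895 to 2101 FPKM. In limma 5, 5, 3 and 7 of the 10 rose and 0, 0, 1 and 1 fell in the 4 comparisons. Sums of 8 astrocyte markers had medians of 804 FPKM with (+)-JQ1 and 1443 FPKM with (−)-JQ1, and sums of 10 oligodendrocyte lineage markers had medians of 849 FPKM with (+)-JQ1 and 1844 FPKM with (−)-JQ1. In limma 0 astrocyte and 0 oligodendrocyte lineage markers rose, while 5, 7, 5 and 7 of the 8 and 8, 9, 7 and 9 of the 10 fell. Cspg4, among these 10, reached 1 FPKM only in (−)-JQ1 libraries. It entered the test through the group where it was high, and it counts in these totals. Sums of 9 neuron markers had medians of 230 FPKM with (+)-JQ1 and 188 FPKM with (−)-JQ1, and in limma 2, 3, 2 and 2 of the 9 rose and 4, 6, 2 and 3 fell in the 4 comparisons. Of all genes tested 8.23%, 12.2%, 11% and 13.7% rose and 19.6%, 26.1%, 21.8% and 24.5% fell. These shifts in cell type markers lay on the same contrast between enantiomers as the differences in the 7 genes. Their part in those differences was not tested. In bulk RNA, fewer cells of a type and less RNA of a gene per cell cannot be told apart.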

How the data were processed

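Poly(A) RNA of 24 cultures in 8 groups of 3 was sequenced by the submitters. Per the submitters' processing notes, FastQC served for read quality and TopHat2 for alignment to mm9, and the authors deposited 1 FPKM value per gene symbol. The program that computed the FPKM values, its annotation, and any scaling between libraries are not given in the sources used here. Each file held 26694 entries, and 58 entries of 29 repeated symbols were left out. Total read counts were not used here, and relative depth (0.939 to 1.05) came from the steps between low FPKM values. The depths so found agreed between pairs of libraries.

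Differences were computed as log2(FPKM + 1) with limma 3.58.1 in R 4.3.3, with 1 mean per group, variances moderated by eBayes (trend, robust) and 16 residual degrees of freedom. The 13801 genes at 1 FPKM or more in 3 libraries or more were tested, and a call needed a p, adjusted by Benjamini-Hochberg over these genes, under 0.05. The scripts were tested on simulated data. Figures, promoters and shared windows used Python 3.11.15, RefSeq promoters with their coordinates on GRCm38.p6, GENCODE mouse transcripts, and RefSeq gene order for neighbouring genes. Alternatives were a pseudocount of 0.1, no filter, a filter of 5 FPKM, median-of-ratios scaling, only the 6 libraries of a comparison, a replicate block, other moderation settings, and each library left out in turn.

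The 7 genes and all gene lists were chosen with earlier results of these data known. The genes named outside the 7 were a set list of regulators, proteasome and loading genes, the 8 called pathway genes of largest change at 0.5 µM and 24 h, up to 3 called genes of each other list, Hexim1, and for H2-K1, B2m and Tap1 the 3 genes most like each over 24 libraries. 1 gene of the list of regulators counts in its totals and is not reported here by name. Genes outside that rule are marked as named after their values were seen.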

Additional observations from a re-analysis of the deposited data

How the results depend on the processing

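The 7 genes kept the sign of every log2 difference under every alternative that gave a value (H2-T23, Tap1 and Tap2 had none with the filter of 5 FPKM), except H2-T23 at 24 h, which came to -0.04 at 0.2 µM without the 2 libraries of high Mir5105 share (an alternative chosen after seeing the data), to -0.03 there without the first (−)-JQ1 library, and to -0.03 at 0.5 µM without the third. The count of other pathway genes called depended on the filter, since fewer genes were tested with one of 5 FPKM: 5, 11, 10 and 8 in place of 10, 18, 17 and 14. With only the 6 libraries at 0.2 µM and 24 h, 5 pathway genes and 1954 of all genes were called in place of 17 and 4529, with fewer samples behind the spread. Leaving out 1 library gave 8 to 9, 15 to 17, 10 to 17 and 10 to 15 pathway genes, the lowest value at 0.2 µM and 24 h without the third (−)-JQ1 library.

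With libraries rescaled by the median of ratios, the median over all genes shifted by 0.0774, 0.102, 0.0887 and 0.0827 (log2) and the share of calls that were higher came to 44.2%, 46.7%, 50.6% and 48.1%, against 29.5%, 31.9%, 33.6% and 35.9% as reported; the cause was not tested. The labels do not tie a replicate number to a preparation, and numbers were not taken as pairs. The correlations of same-numbered libraries' deviations ran from -0.34 to 0.36 over the 4 comparisons. At 0.2 µM and 12 h all 3 lay between 0.105 and 0.133. There each (+)-JQ1 library correlated best with the (−)-JQ1 library of its own number. In the other comparisons 2 (0.5 µM, 12 h), 0 (0.2 µM, 24 h) and 2 (0.5 µM, 24 h) of the 3 did so. In every 12 h group the third library had the highest Mir5105 share and the lowest Tapbp level. Whether same-numbered libraries share a source was not tested. A fit with the replicate block called 10, 18, 17 and 15 pathway genes. Depth limits Psmb8, Psmb9 and, in (+)-JQ1 libraries, Nlrc5 and Tap2, the last with 2 to 17 reads a library.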

Other observations

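Interferon-stimulated genes outside the class I pathway were low in these cells, and 5 of 21 in the files passed the filter. Gbp2, Gbp3 and Irgm1 passed it only through (−)-JQ1 libraries, so no count of calls is given for these genes. The genes described next were picked from those called, and in no comparison were all 5 called. Isg15, named after its values were seen, also passed the filter, at 0 to 1.29 FPKM over all libraries. Gbp2, a guanylate-binding protein of the antimicrobial response, was listed at 0 in all 6 (+)-JQ1 libraries at 24 h, against 42 to 74 reads, counted as for Tap2, in the 6 (−)-JQ1 libraries. It had 54 reads over the 12 (+)-JQ1 libraries and 738 over the 12 (−)-JQ1 libraries. Irgm1, an immunity-related GTPase, averaged 0.137 ± 0.0739 FPKM in (+)-JQ1 cells and 1.48 ± 0.626 FPKM in (−)-JQ1 cells at 0.5 µM and 24 h (SD, n = 3 each; limma log2 fold change -1.10 ± 0.14, adjusted p = 2.8e-06 with no filter). Ifit2, an interferon-induced RNA-binding protein, averaged 1.61 ± 0.345 FPKM in (+)-JQ1 cells and 3.72 ± 0.756 FPKM in (−)-JQ1 cells there (SD, n = 3 each; limma log2 fold change -0.85 ± 0.16, adjusted p = 0.000238). The summed FPKM of the 21 genes was 2.87 to 5.16 in (+)-JQ1 libraries and 9.09 to 13.8 in (−)-JQ1 libraries, without overlap, while H2-K1 and H2-D1 were at higher levels with (+)-JQ1.

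Of 10 MHC class II genes in the files only H2-DMa, which encodes a chain of the peptide exchange factor, passed the filter. H2-DMa averaged 6.78 ± 0.853 FPKM in (+)-JQ1 cells and 3.58 ± 1.03 FPKM in (−)-JQ1 cells at 0.5 µM and 24 h (SD, n = 3 each; limma log2 fold change 0.78 ± 0.20, adjusted p = 0.0036), and was not called in the other 3 comparisons. H2-Ob, a chain of the inhibitor of that factor, was listed at 0 in all 24 libraries, and the presenting chain H2-Ab1 reached at most 0.791 FPKM.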
